A study of Mus musculus with 6 samples.

Results

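The clonotypes described here are δ chain rearrangements in which *Trdv5* or *Trdv1* was joined to *Trdj1* and no D segment was assigned in the clonotype table. A clonotype was a CDR3 nucleotide sequence together with its V and J segment, and a member was any such row of the R1 tables whose D field was empty. There were 177 of them, 94 with *Trdv5* and 83 with *Trdv1*, among the 1936 clonotypes with *Trdv1* or *Trdv5* in the 6 samples. The remaining *Trdj1* joins, 1753 clonotypes, carried an assigned D. No clonotype lacked a D in 1 sample and had one in another, but the same CDR3 sequence was annotated each time.

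The δ chain TCR-seq compared γδ T cells that did or did not secrete IL-17 (IL-17pos and IL-17neg), sorted from the peripheral lymph nodes (pLN) of adult B6.Cg-Tcrgtm1lku (B6.Vg4-/-Vg6-/-) mice, with 3 samples in each group, numbered 13-01, 20-01 and 27-01. Both groups therefore carried the same deletion of Vγ4 and Vγ6 and were exposed to PMA and ionomycin for 3 h before IL-17-secreting cells were marked by a secretion assay. The sort did not select for a particular Vγ chain as far as its listed antibodies show, and the exact age of the mice and the number of sorted cells were not given in the sources used here. What the sample numbers stand for is not stated either, so separate animals cannot be assumed and every p measures the spread between these samples alone. RACE PCR was aimed at *Trdv1* and *Trdv5*, and the R1 tables held from 95803 to 142169 reads per sample.

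In the δ locus a V segment is normally joined to a J segment through D segments, which are short and are trimmed at both ends by nucleases before ligation. Terminal deoxynucleotidyl transferase adds N-nucleotides without a template, mostly G and C, and the opening of hairpin ends leaves short palindromic (P) nucleotides that mirror the end of a segment. A join can lack a recognizable D because V and J were ligated directly, or because the D was trimmed until too little was left to be recognized. *Trdv5* lies downstream of the constant region in inverted orientation and is joined by inversion, whereas *Trdv1* lies upstream of the D segments.

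The germline parts below are those from which a CDR3 is built, shown because each join is read against them. They were taken from the RefSeq annotation of GRCm38 on chromosome 14, run from the conserved cysteine codon to the last base of the V segment or from the first base of *Trdj1* to the conserved phenylalanine codon, and contain no capitals because nothing is marked in them.
Trdv5: tgtgcctcggggtat
Trdv1: tgtggagggaaag
Trdd1: atggcatat
Trdd2: atcggagggatacgag
Trdj1: ctaccgacaaactcgtcttt
The *Trdv5* part is 15 bases long and lies at chr14:54148662-54148676 on the minus strand, at the 3′ end of the coding V segment. The *Trdv1* part has 13 bases at chr14:53882205-53882217 on the plus strand, again at the 3′ end of the V segment. *Trdd1*, of 9 bases, lies at chr14:54113468-54113476 and *Trdd2*, of 16 bases, at chr14:54122226-54122241, both on the plus strand. The *Trdj1* part covers 20 bases at chr14:54123138-54123157 on the plus strand, within the coding J segment.

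The following clonotypes had the most R1 reads of their V segment in a sample. Capitals mark the bases between the V and the J border of the table, or, in Trdv1-b, the bases that both borders claim. The letters after the V segment only tell the clonotypes apart.
Trdv5-a: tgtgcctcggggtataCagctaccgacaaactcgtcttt
Trdv5-b: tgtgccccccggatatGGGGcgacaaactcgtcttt
Trdv5-c: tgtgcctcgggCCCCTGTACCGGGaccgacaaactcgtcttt
Trdv5-d: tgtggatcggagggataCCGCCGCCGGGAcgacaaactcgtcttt
Trdv5-g: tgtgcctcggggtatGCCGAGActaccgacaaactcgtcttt
Trdv5-j: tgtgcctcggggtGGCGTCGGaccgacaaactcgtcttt
Trdv1-a: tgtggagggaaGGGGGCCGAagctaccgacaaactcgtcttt
Trdv1-b: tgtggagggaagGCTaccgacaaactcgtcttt
Trdv1-c: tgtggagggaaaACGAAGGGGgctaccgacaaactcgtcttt
Trdv1-d: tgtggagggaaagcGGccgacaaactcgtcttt
Trdv1-f: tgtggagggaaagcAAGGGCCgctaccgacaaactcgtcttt
Trdv1-i: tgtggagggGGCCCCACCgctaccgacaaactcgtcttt

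Joins without an assigned D were found in every sample. The IL-17neg samples held 15, 24 and 70 of them and the IL-17pos samples 16, 24 and 61, for 13-01, 20-01 and 27-01 in that order. As a share of all *Trdj1* clonotypes these were 7.77%, 11.0% and 10.01% in IL-17neg and 9.64%, 8.70% and 9.41% in IL-17pos. The 27-01 samples had the most members in both groups and also the most *Trdj1* clonotypes, whereas the shares of the 2 groups overlapped.

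In reads, joins without D made up 2.74%, 11.5% and 13.4% of the *Trdv1* and *Trdv5* reads of IL-17neg 13-01, 20-01 and 27-01. In IL-17pos the shares were 12.5%, 12.5% and 13.0%. IL-17neg 13-01 was lower than the other 5 samples, which lay close together. The mean was 9.22% ± 5.69 (SD, n = 3) in IL-17neg and 12.7% ± 0.243 (SD, n = 3) in IL-17pos, a difference of 3.46 percentage points that did not exceed the spread between samples (exact two-sided permutation test, p = 0.40, 0.96 after Benjamini-Hochberg adjustment over the 6 measures compared between groups). With 3 samples against 3 the smallest p this test can give is 0.10, so none of the comparisons between groups could pass 0.05. The share differed by 0.22 percentage points when IL-17neg 13-01 was left out and by -0.25 when each clonotype was counted once. It differed by 5.56 percentage points when IL-17neg 27-01 was left out and by 5.55 in the R2 tables.

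Among *Trdv5*-*Trdj1* reads, joins without D took 0.0907%, 12.1% and 12.1% in IL-17neg and 15.2%, 18.1% and 13.8% in IL-17pos. Each IL-17pos sample was above each IL-17neg sample, and this was the only 1 of the 6 measures in which the groups did not overlap. IL-17neg averaged 8.07% ± 6.91 (SD, n = 3) and IL-17pos 15.7% ± 2.16 (SD, n = 3). The exact two-sided permutation test gave p = 0.10, its smallest possible value, and the adjusted value was 0.60. IL-17neg 13-01 held 64 such reads among 70537 *Trdv5*-*Trdj1* reads, and without this sample the difference fell from 7.63 to 3.64 percentage points. Counting each clonotype once, the difference was 1.75 percentage points, with overlapping groups (p = 0.60 by the same exact test).

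Among *Trdv1*-*Trdj1* reads the order was not the same. Joins without D took 7.80%, 10.7% and 15.4% in IL-17neg and 10.2%, 2.89% and 11.7% in IL-17pos. IL-17pos 20-01 was the lowest and IL-17neg 27-01 the highest, and the groups overlapped. The means were 11.3% ± 3.83 (SD, n = 3) in IL-17neg and 8.24% ± 4.69 (SD, n = 3) in IL-17pos (exact two-sided permutation test, p = 0.50, adjusted 0.96). IL-17pos minus IL-17neg was -3.03 percentage points with all samples, -0.35 when IL-17pos 20-01 was left out and -0.98 when IL-17neg 27-01 was left out.

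A few clonotypes held much of this read share. Trdv5-a, which kept both segments whole and had 1 base between the borders, accounted for 8404 reads in IL-17neg 20-01, which is 6.32% of the reads of that sample (95% Wilson interval, 6.20 to 6.46%) and 55.1% of its reads without D. Trdv1-a, with a run of G in its gap, held 4830 reads, a further 31.6% of the reads without D in that sample. In the other 5 samples Trdv5-a had between 1 and 4 reads. Thus 2 clonotypes made up most of the D-less reads of IL-17neg 20-01.

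In the remaining samples the leading members were smaller. Trdv5-d had 2092 reads in IL-17pos 13-01, or 2.12% of the sample, and Trdv1-c had 2069 reads there, or 2.10%. Trdv5-c had 2141 reads in IL-17pos 20-01 and Trdv5-b 2159 in IL-17pos 27-01, which corresponds to 2.23% and 1.52% of their samples. Neither reached 10 reads in any other sample.

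The *Trdv1* leaders of the IL-17pos samples were Trdv1-i, with 521 reads in 20-01, and Trdv1-d, with 1241 reads in 27-01. In IL-17neg 13-01 the leading *Trdv1* member, Trdv1-f, held 1111 reads and 37.7% of the reads without D. The leading *Trdv5* member of the same sample, Trdv5-j, had 51 reads, and it differed by 1 substitution from a clonotype with at least 10 times its reads. That larger clonotype carried an assigned D, because all *Trdv5* members of the sample together held 64 reads. In IL-17neg 27-01, where no member took over 14.3% of the reads without D, Trdv5-g had 646 reads and Trdv1-b 2197.

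The V-J gap, the number of bases between the V border and the J border, ranged from -5 to 19 bases over the 177 members, with a median of 4. A gap below 0 means that the V and the J alignment claim the same bases. Gaps of 1 to 5 bases were the most common class with 71 members, followed by 53 members with 6 to 10 bases and 25 members with more than 10. A gap of exactly 0 occurred in 3 members, all with *Trdv5*, and a negative gap in 25. Between the borders of V and J, joins with an assigned D held a median of 21 bases, D included.

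The 2 longest gaps of each V segment among members with at least 10 reads are shown here, with the gap in capitals, because their length comes near that of *Trdd2* itself.
Trdv5-e: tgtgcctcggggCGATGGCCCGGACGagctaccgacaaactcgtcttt
Trdv5-h: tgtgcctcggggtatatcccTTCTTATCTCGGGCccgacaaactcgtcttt
Trdv1-g: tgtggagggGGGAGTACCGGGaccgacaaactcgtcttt
Trdv1-j: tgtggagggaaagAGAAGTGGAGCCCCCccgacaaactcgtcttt
Trdv5-e and Trdv5-h both had a gap of 14 bases, with 1115 reads in IL-17pos 20-01 and 376 reads in IL-17neg 27-01. Trdv1-j had a gap of 15 bases and 257 reads in IL-17neg 27-01, and Trdv1-g a gap of 12 bases and 803 reads in IL-17pos 27-01. Another *Trdv1* member also had a gap of 12 bases, with fewer reads (105 in IL-17pos 20-01), and is not shown. None of these gaps held more than 5 consecutive bases of *Trdd2* even when the adjacent mismatched bases were included.

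Weighted by reads, the mean gap was 6.72, 4.20 and 3.20 bases in the IL-17neg samples and 5.96, 6.15 and 4.06 bases in the IL-17pos samples. Sample 27-01 had the lowest value of each group, and in IL-17neg 20-01 the 1-base gap of Trdv5-a held most of the weight. The means were 4.70 ± 1.81 bases (SD, n = 3) in IL-17neg and 5.39 ± 1.16 bases (SD, n = 3) in IL-17pos, which overlapped (difference 0.69 bases, exact two-sided permutation test, p = 0.70, adjusted 0.96). By uninterrupted germline matches in place of the table's borders the difference was 1.96 bases (p = 0.30 by the same exact test), whereas it was -1.13 bases with each clonotype counted once and -0.068 bases without IL-17neg 27-01.

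The gap was also compared between the 2 V segments. With each clonotype counted once, *Trdv5* joins had mean gaps of 7.33, 5.33 and 4.89 bases in IL-17neg and 6.57, 6.0 and 3.59 bases in IL-17pos. *Trdv1* joins had 7.0, 6.83 and 5.51 bases in IL-17neg and 2.67, 7.88 and 3.70 bases in IL-17pos. The mean difference over the 6 samples was 0.0198 bases ± 2.08 (SD, n = 6), with *Trdv5* longer in 2 of 6 samples (exact two-sided sign-flip permutation test, p = 1.00). It was 1.37 bases in the R2 tables and 1.14 bases by uninterrupted germline matches, described below, or 1.18 bases with at least 10 reads (p = 0.31, 0.25 and 0.56 by the same exact test), and its sign changed under other settings.

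Gap classes were counted for each V segment. Of the 83 *Trdv1* members, 44 had a gap of 1 to 5 bases, as against 27 of the 94 *Trdv5* members. Gaps over 10 bases were found in 17 *Trdv5* and 8 *Trdv1* members. With at least 10 reads, gaps of 1 to 5 bases were in 24 of 49 *Trdv1* and 19 of 57 *Trdv5* members, and gaps over 10 bases in 5 and 9. Of all members, 15 with *Trdv1* and 8 with *Trdv5* were 1 substitution from a clonotype with at least 10 times their reads. These are counts over clonotypes that share samples, and no test was made of them.

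V and J overlapped in the table for 17 *Trdv5* and 8 *Trdv1* members. The *Trdv1* overlaps read GCT in 4 clonotypes, AGCT in 3 and AGC in 1. The last bases of *Trdv1* with their palindromic CT and the first bases of *Trdj1* preceded by their palindromic AG spell the same AGCT, so a short stretch at this junction can be read from either side. *Trdv5* overlaps were more varied, with TA in 7 clonotypes, TCG in 2, CCGA in 2 and 6 other stretches of 1 to 5 bases in 1 clonotype each.

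The members with the longest overlaps are shown first as the table bounds them, with the shared bases in capitals.
Trdv5-f: tgtgcctcggggtatAAACtcgtcttt
Trdv5-i: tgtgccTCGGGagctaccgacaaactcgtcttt
Trdv1-h: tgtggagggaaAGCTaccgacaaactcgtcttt
Trdv1-k: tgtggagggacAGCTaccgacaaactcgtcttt
Read against the germline parts instead, with capitals for bases outside an uninterrupted match from either end, the same clonotypes and Trdv1-b look as follows.
Trdv5-f: tgtgcctcggggtataaactcgtcttt
Trdv5-i: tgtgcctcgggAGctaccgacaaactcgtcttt
Trdv1-h: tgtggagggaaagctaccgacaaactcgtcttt
Trdv1-k: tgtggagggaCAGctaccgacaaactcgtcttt
Trdv1-b: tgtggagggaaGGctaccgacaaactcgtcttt
Trdv1-h is thus the complete germline *Trdv1* part followed directly by the complete germline *Trdj1* part, with no base between them, and it had 601 reads in IL-17neg 27-01. Trdv5-f joins the complete *Trdv5* part to the last 12 bases of *Trdj1* and had 1010 reads in IL-17pos 13-01. It had the most reads of the 4 *Trdv5* members with an overlap of 4 bases, and the others are not shown.

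By uninterrupted germline matches no member overlapped, that is, 0 of 177 had a gap below 0, and 4 had a gap of 0, namely 3 with *Trdv5* and Trdv1-h. Of the 25 members that overlapped in the table, 3 had a gap of 0 by this reading, 8 had 1 to 5 bases and 14 had more than 5. An uninterrupted match ends at the first changed base, also far from the junction, so these lengths can include germline bases. For example, a clonotype with 95 reads that differed from Trdv1-b by a changed base within J had 15 bases, against 2 in Trdv1-b. The table's borders therefore ran into bases that differ from the germline segment or continue past its end. Over all 177 members the median gap rose from 4 to 12 bases by this reading, and over the 106 members with at least 10 reads in a sample it rose from 4 to 8.

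Overlapping joins took 0%, 0.0459% and 29.2% of the D-less reads in the IL-17neg samples and 25.0%, 0% and 17.9% in the IL-17pos samples. No overlapping read was present in IL-17neg 13-01 or IL-17pos 20-01, and IL-17neg 20-01 had 7. The 3 samples with many were spread over both groups (9.74% ± 16.8 against 14.3% ± 12.9, SD, n = 3 each; exact two-sided permutation test, p = 1.00, adjusted 1.00). Counting clonotypes, the share that overlapped was 12.9% on average for *Trdv5* and 10.1% for *Trdv1*, higher with *Trdv5* in 3 of 6 samples and lower in 1 (exact sign-flip permutation test, p = 0.75, n = 6). Because both shares were 0 in 2 samples, this test could not give a p under 0.125.

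Some members held bases that match a D segment. In the bases between the uninterrupted V and J matches, 30 of the 177 members held a run of at least 6 bases of *Trdd2*, and in 2 a run of that length matched *Trdd1*, whereas 1655 of the 1753 joins with an assigned D held such a run of *Trdd2*. In 4 of the 12 *Trdv1* members with such a run, each with 1 to 3 reads, at least 6 of its bases were germline *Trdv1* bases at their own position, because *Trdv1* and *Trdd2* share a stretch and a changed base near the start of V ended the uninterrupted match. The other 26 runs, 18 with *Trdv5* and 8 with *Trdv1*, were not of this kind. All 30 runs of *Trdd2* in members lay at least partly inside a stretch that the table assigned to V or J, since within the table's own gaps no run of *Trdd2* was longer than 4 bases. The shortest D that was assigned in the tables had 5 bases.

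The longest run was in Trdv5-d, shown here with the *Trdd2* bases in capitals, because the table places most of them in the V segment.
Trdv5-d: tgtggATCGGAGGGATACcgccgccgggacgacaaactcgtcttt
This run is 13 of the 16 bases of *Trdd2*, starting at its first base, and only the first 4 bases of the clonotype match *Trdv5* without interruption. Members with a run of at least 6 bases made up 13.3% of the D-less reads in IL-17neg 27-01, 24.9% in IL-17pos 13-01 and 12.3% in IL-17pos 27-01, and at most 4 reads in each of the other 3 samples. When these members were counted as having a D, the groups overlapped in the *Trdv5* share of D-less reads, and the difference was 5.65 percentage points (exact permutation test, p = 0.40). Conversely, 139 members had no run over 4 bases of *Trdd2*.

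Trimming of V and J was compared with joins that had an assigned D, within each sample and with each clonotype counted once. By the table's borders, *Trdv5* contributed 14.9 bases to joins without D and 13.8 bases to joins with D, on average over the samples. The difference was 1.08 bases ± 1.83 (SD, n = 6), positive in 4 of 6 samples, and did not exceed the spread (exact two-sided sign-flip permutation test, p = 0.25, adjusted 0.57 over 7 measures). It was 0.61 bases without IL-17pos 13-01, and 0.080 bases when members with a run of at least 6 D bases were counted as having a D (p = 0.94 by the same exact test). By sample it was -1.17, -0.77 and 1.86 bases in IL-17neg and 3.43, 2.46 and 0.70 bases in IL-17pos. Mean values above the germline length of 15 occurred in 3 samples, and the V border ran more than 3 bases past the germline end in 14 *Trdv5* members. By uninterrupted matches the sign was the opposite, with a difference of -0.55 bases (exact sign-flip permutation test, p = 0.41, n = 6), but with at least 10 reads as well it was 0.079 bases (p = 0.81 by the same exact test).

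*Trdv1* contributed 12.4 bases to joins without D and 12.02 bases to joins with D (difference 0.38 ± 0.94 bases, SD, n = 6; positive in 4 of 6 samples; exact sign-flip permutation test, p = 0.41, adjusted 0.57). This difference was 0.16 bases without IL-17pos 27-01 and 0.68 without IL-17pos 20-01, 0.87 with at least 10 reads (p = 0.062 by the same exact test) and 0.070 by uninterrupted matches. *Trdj1* contributed 19.4 and 19.2 bases (difference 0.21 ± 0.49 bases, SD, n = 6; positive in 4 of 6 samples; p = 0.41 by the same exact test, adjusted 0.57). For *Trdj1* the sign turned when uninterrupted matches were used (-0.52 bases, exact sign-flip permutation test, p = 0.34). Weighted by reads, the *Trdj1* difference was 0.85 bases (p = 0.375 by the same exact test). None of the 3 differences passed 0.05 in the R1 tables with all clonotypes. Before adjustment, *Trdv5* passed it with at least 2 reads (1.58 bases) and *Trdv1* in the R2 tables (0.84 bases), each with p = 0.031 by the same exact test.

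The V segment was complete by uninterrupted match in 60 of 177 joins without D, or 33.9%, and in 34.7% of the 1753 joins with D. *Trdj1* was complete in 25.4% and 35.7%, respectively. Palindromic bases followed a complete V in 20.3% of joins without D and in 15.2% with D, and preceded a complete J in 16.4% and 24.0%. Where V and J lay close together, germline bases of the other segment could be counted as palindromic, as in Trdv1-h. Joins with D, which had at least 5 bases between the uninterrupted matches, could not be affected in this way. Among clonotypes with at least 10 reads in a sample, *Trdj1* was complete in 36.8% of 106 joins without D and in 45.5% of 1082 joins with D. These shares describe distinct clonotypes pooled over samples and were not tested.

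The bases in the gaps were mostly G and C. In the gaps of members G and C took 69.8% of 973 bases, with G at 37.3% and C at 32.5%, whereas the inserted bases around an assigned D in the other *Trdj1* joins were G or C in 63.4% of 13337 bases. By sample the share in members was 77.6%, 74.5% and 64.8% in IL-17neg and 80.2%, 79.9% and 68.8% in IL-17pos, against 62.5 to 65.2% around an assigned D. With both V segments together it was higher in members in each of the 6 samples, but for *Trdv1* alone it was lower in IL-17neg 27-01, at 63.6% against 66.7%. This comparison was made after the values were seen and was not tested. Trdv1-e, found in 3 samples and leading in none, is shown for its gap of G alone, in capitals.
Trdv1-e: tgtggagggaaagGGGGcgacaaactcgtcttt
It had 1229 reads in IL-17pos 27-01 and 1 read each in IL-17neg 13-01 and IL-17neg 20-01.

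The CDR3 of joins without D was 27 to 60 bases long with a median of 36, and every length was divisible by 3. Joins with D had a median of 54 bases and ranged from 30 to 78. In members, 57 of 177 CDR3 sequences had 27 to 33 bases, as opposed to 7 of 1753 with D, and 13 members had over 45 bases as opposed to 1474. Because a D adds bases, this difference partly follows from how the members were chosen, and it was not tested. The shortest CDR3 of 27 bases occurred in 3 clonotypes, all with *Trdv5*, one of them Trdv5-f. For *Trdv1* the shortest class was 33 bases, with 30 of the 83 clonotypes and 11837 reads.

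Weighted by reads, the CDR3 length of joins without D was 40.6, 39.4 and 37.1 bases in the IL-17neg samples and 40.3, 41.0 and 36.8 bases in the IL-17pos samples. Sample 27-01 had the shortest value in both groups. The group means of 39.0 ± 1.79 and 39.3 ± 2.27 bases (SD, n = 3 each) overlapped (exact two-sided permutation test, p = 0.80, adjusted 0.96). The difference of 0.35 bases became 1.04 bases with each clonotype counted once and -0.62 bases without IL-17neg 27-01. In the same samples, joins with D were between 50.6 and 53.7 bases long by reads, longer than joins without D in any sample. This too follows at least partly from how the members were chosen.

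Joins without D were then counted as a share of the clonotypes of each V segment. They were 5.31%, 13.3% and 10.2% of the *Trdv5*-*Trdj1* clonotypes in IL-17neg and 12.1%, 11.7% and 10.4% in IL-17pos. Among *Trdv1*-*Trdj1* clonotypes they were 11.2%, 7.14% and 9.80% in IL-17neg and 8.33%, 5.76% and 8.44% in IL-17pos. *Trdv5* was higher in 5 of 6 samples, IL-17neg 13-01 being the exception, and the mean difference of 2.04 percentage points ± 4.51 (SD, n = 6) did not exceed the spread (exact two-sided sign-flip permutation test, p = 0.28, adjusted 0.57). Without IL-17neg 13-01 it was 3.64 percentage points (p = 0.062, the smallest that 5 samples allow in this exact test), and it was 0.117 percentage points in the R2 tables (p = 0.94 by the same exact test).

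Most members were private to 1 sample. Of the 177, 153 were found in 1 sample, 19 in 2, 3 in 3, 1 in 4 and 1 in all 6, so that 24 members, or 13.6%, were found more than once. Of the joins with D, 196 of 1753 were, or 11.2%. In 23 of these 24 members the second-highest sample had under 10 reads and at least 50 times fewer reads than the highest, and this also held for 188 of the 196 joins with D, or 95.9% against 95.8%.

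Trdv5-a was the member present in all 6 samples, with 8404 reads in IL-17neg 20-01 and 4, 1, 2, 4 and 3 reads in IL-17neg 13-01, IL-17neg 27-01, IL-17pos 13-01, IL-17pos 20-01 and IL-17pos 27-01. Trdv1-a was present in 4 samples, with 4830 reads in IL-17neg 20-01 and 6, 1 and 1 in IL-17pos 27-01, IL-17neg 13-01 and IL-17pos 13-01. IL-17neg 20-01 and IL-17pos 27-01 shared 15 members, more than any other pair of samples. In each of the 15 the read counts differed at least 50-fold, and IL-17pos 27-01 was the higher in 12 of them. Reads carried over between libraries were not tested as a source of these low counts.

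Among members, Trdv1-b alone had at least 10 reads in 2 samples, which is 0.565% of 177, beside 8 of the 1753 joins with D, or 0.456%, in 2 or more samples. It had 2197 reads in IL-17neg 27-01 and 1111 reads in IL-17pos 13-01, and 0 reads elsewhere. Its V and J parts are separated by GG by uninterrupted matches, and its group and its sample number both differ between the libraries that held it. The count of 0 in the other samples allows a share of up to 0.00211 to 0.00313% of their reads.

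Within samples, members were found in another sample in 33.3%, 79.2% and 4.29% of cases in IL-17neg. In IL-17pos they were found elsewhere in 8 of 16, 6 of 24 and 16 of 61 cases. For joins with D the shares were 37.1%, 65.1% and 6.36%, and 34.0%, 18.2% and 17.7%. The mean difference was 6.58 percentage points ± 8.12 (SD, n = 6), with members higher in 4 of 6 samples (exact two-sided sign-flip permutation test, p = 0.125, adjusted 0.57). Weighted by reads it was 0.58 percentage points (p = 0.97 by the same exact test). With at least 10 reads required in both samples it was -0.22 percentage points (exact sign-flip permutation test, p = 0.94, n = 6).

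At least 10 reads were reached by 106 of the 177 members in some sample, and by 5, 4, 40, 10, 13 and 35 members in IL-17neg 13-01, 20-01 and 27-01 and IL-17pos 13-01, 20-01 and 27-01. These held nearly all of the D-less reads, since rarer members added 10 to 56 reads per sample. With this minimum the D-less share of *Trdj1* clonotypes was 5.88%, 7.55% and 9.73% in IL-17neg and 10.3%, 8.23% and 8.79% in IL-17pos. For *Trdv5* alone it was 2.08%, 7.69% and 9.71% in IL-17neg and 15.2%, 12.2% and 9.90% in IL-17pos. These shares did not overlap, whereas those of *Trdv5* clonotypes without a minimum did. IL-17neg 27-01 and IL-17pos 27-01 were close, and IL-17neg 13-01 and 20-01 contributed only 1 and 2 such clonotypes. For *Trdv1* the shares were 10.8%, 7.41% and 9.76% in IL-17neg and 7.81%, 4.76% and 7.65% in IL-17pos. They overlapped, with IL-17neg 13-01 the highest and IL-17pos 20-01 the lowest.

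At this minimum the negative gaps were in 17 of the 106 members, or 16.0%, compared with 14.1% of all 177, and runs of at least 6 bases of *Trdd2* were in 14. IL-17neg 27-01 had 6 overlapping members, IL-17pos 13-01 had 4 and IL-17pos 27-01 had 8, and the other 3 samples had 0. The median CDR3 length was 36 bases as before.

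The second read of the pair was compared where it held the clonotype. The match was by CDR3 sequence, V and J, so the D call was made again on the same sequence. Its agreement is therefore no separate evidence that a D was lacking. Of 107 occurrences of a member with at least 10 R1 reads in a sample, 100 were in the R2 table of that sample, and all 100 lacked a D there. All 57 *Trdv5* occurrences were found, and 43 of the 50 with *Trdv1*. Of the 103 occurrences with fewer reads, 20 were found, again all without D. Differences of 1 base from a clonotype of the same V segment with at least 10 times the reads marked 23 of the 177 members, or 13.0%, and 4.73% of the joins with D.

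At the protein level, 4 of the 177 members encoded a CDR3 that a clonotype with an assigned D also encoded, and 30 encoded a CDR3 shared with another member. The same counts were not made for joins with D, so they do not set members apart. A single further join without D, *Trdv5* to *Trdj2*, was present with 1 read in IL-17neg 13-01 and was not counted among the members.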

How the data were processed

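The authors amplified δ chain cDNA by RACE PCR, sequenced it on a MiSeq as read pairs, annotated the reads with MiXCR and exported the clonotypes in the VDJtools format. The versions are not given in the sources used here, and the submitters' processing notes name the build mm10. Counts were deposited as reads per clonotype, neither normalized nor corrected by molecular identifiers, and the deposited fraction relates each count to its table total. The 12 deposited tables also give the V, D and J borders within the CDR3.

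Groups were taken from the sample labels. The R1 tables were used for the reported values and the R2 tables as an alternative. The gap was calculated from the borders. Uninterrupted matches to the germline parts were computed from both ends, with up to 3 palindromic bases. Groups were compared by exact two-sided permutation over 20 assignments, and kinds of join within samples by exact sign flips over 64 assignments, whose smallest p is 0.031 where no difference is 0. Values were adjusted by the Benjamini-Hochberg method over 6 and 7 measures. Both steps were tested on simulated data. Intervals (Wilson, 95%) and the upper limit that a count of 0 allows (3 reads) cover counting error only. Sequences and coordinates came from GRCm38 with its RefSeq annotation.

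Clonotypes were named by rule: the one with the most reads per V segment and sample, those with at least 10 reads in 2 samples, the 3 per V segment found in most samples, and, with at least 10 reads, the 2 longest overlaps and the 2 longest gaps per V segment. The members, measures and rules were chosen with earlier results of these data known. Alternatives were the R2 tables, minimums of 2 and 10 reads, the other weighting, a replicate block and leaving out each sample. Uninterrupted matches, leaving out clonotypes 1 substitution from one with at least 10 times their reads, and counting a run of at least 6 D bases as D were added after seeing the data. Python 3.11.15, NumPy 2.4.6, pandas 2.3.3 and SciPy 1.17.1 were used. Protein sequences are not reported here.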

Additional observations from a re-analysis of the deposited data

How the results depend on the processing

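Over 167 alternative values for the 13 measures, the direction held in 143. In 42 of the 167, all within samples, p could pass 0.05, and 2 passed. The comparisons between groups, those that leave out a sample and all for the overlap could not. Nor could the *Trdv5* minus *Trdv1* gap without clonotypes 1 substitution from a larger one. The same held for *Trdv1* bases retained by uninterrupted matches with at least 10 reads, and for sharing with at least 10 reads in both samples. The difference in the share of D-less reads became -0.25 percentage points with each clonotype counted once, and the gap difference between groups -1.13 bases. Counting a run of at least 6 D bases as D turned the difference in CDR3 length to -0.30 bases, the *Trdv5* minus *Trdv1* gap to -0.0048 bases and the *Trdj1* bases retained to -0.064. The *Trdv5* minus *Trdv1* gap was -0.50 bases with at least 2 reads, -0.060 weighted by reads and -0.23 without clonotypes 1 substitution from a larger one. The *Trdv5* minus *Trdv1* overlap was -1.94 percentage points with at least 10 reads and -3.72 weighted by reads, and with uninterrupted matches it could not be computed, since no member then overlapped. Uninterrupted matches gave -0.55 bases for *Trdv5* and -0.52 for *Trdj1* retained without D minus with D, and -0.12 for *Trdj1* with at least 10 reads. Sharing was -0.22 percentage points with at least 10 reads in both samples. Retained *Trdv5* bases passed 0.05 with at least 2 reads (1.58 bases, exact sign-flip permutation test, p = 0.031) and *Trdv1* bases retained in the R2 tables (0.84 bases, p = 0.031 by the same exact test). The cause of these changes was not tested.

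Leaving out 1 sample at a time, the group difference ranged from -0.068 to 1.69 bases for the gap (lowest without IL-17neg 27-01), from -0.77 to 14.3 percentage points for the overlap and from -0.62 to 1.64 bases for CDR3 length. The *Trdv5* minus *Trdv1* difference ranged from -0.76 to 0.40 bases for the gap (lowest without IL-17pos 13-01) and from -2.13 to 9.48 percentage points for the overlap. The difference in the share of D-less reads ranged from 0.22 percentage points, without IL-17neg 13-01, to 5.56, that in the *Trdv1* share from -4.77 to -0.35, and the *Trdv5* minus *Trdv1* share of D-less clonotypes from 1.21 to 3.64. Bases retained without D minus with D ranged from 0.61 to 1.53 for *Trdv5*, from 0.16 to 0.68 for *Trdv1* and from 0.10 to 0.34 for *Trdj1*. Whether the numbers pair the samples is not stated in the sources used here. Same-numbered samples correlated by 0.054 to 0.071 over 220 clonotypes found in at least 2 samples, and each sample correlated best with its own number. Most of these clonotypes had under 10 reads in their second-highest sample, so the correlation cannot decide whether the samples are pairs. The main tests did not treat them as pairs. With a replicate block the difference in the *Trdv5* share of D-less reads was 7.63 percentage points (exact sign-flip permutation test, p = 0.25, the smallest that 3 pairs allow), so no measure could pass 0.05 with it. Rare members limit what is seen: 20 of the 103 occurrences under 10 reads were in the R2 table.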
